A study of Drosophila melanogaster with 12 samples.

Results

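The comparison described here set the heads of flies on their 7th day of withdrawal from the convulsant pentylenetetrazol (PTZ) against heads from their 3rd day of withdrawal. Members were all genes with a log2 ratio on at least 3 of the 4 arrays of each day: 2385 of the 6793 genes named on the array. Of the 12 arrays of the study, the 4 of day 10 and the 4 of day 14 (both counted from the first day on the drug) entered, and the day 8 arrays did not. The flies were unmated Oregon-R wild type males, given as 4 to 5 days old in the sample labels and as 3 to 4 days old in the text of the series. Withdrawn flies ate food with 8 mg/ml PTZ for 7 days and then drug-free food for 3 days (day 10) or 7 days (day 14). Untreated flies ate drug-free food throughout and were frozen on the matching day. RNA came from pools of frozen heads from vials that started with 30 flies, so each array compares pools and not single animals. Each 2-colour array held withdrawn and untreated RNA of one parallel set, which the labels count as biological replicates. All values are therefore ratios against an untreated pool of the same day, and a difference between days removes what withdrawn and untreated flies shared on each day.

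PTZ blocks GABA-A type chloride channels, the receptors through which most fast inhibition in the brain is carried, and it provokes seizures at high dose. In the fly these channels are built mainly from the Rdl subunit, and GABA is made from glutamate by the decarboxylase Gad1. A fly head holds the brain and the eyes together with glia, muscle, cuticle and a large fat body, the insect tissue that combines the roles of liver and adipose store. Ratios from whole heads carry signal from all of them. For a tissue's genes, fewer cells and less RNA per cell cannot be told apart.

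The arrays differed in how much they measured and in how well replicates matched. Day 10 arrays carried values for 15057 to 18354 of 27648 spots. Day 14 arrays carried values for 4310 to 19807, with replicate 4 the lowest, and 1344 of the 2385 genes had no value on that array. Over the 604 genes with a value on all 8 arrays, day 10 replicates 1 and 2 correlated at r = 0.59 and replicates 3 and 4 at r = 0.59, while the other day 10 pairs lay between -0.03 and 0.21. Day 14 pairs lay between -0.11 and 0.25, and pairs across the days between -0.30 and 0.32. These are correlations across genes, which are not independent replicates. Day 10 thus consisted of 2 pairs of like arrays. Outside these pairs, replicates of a day correlated within the same range as arrays of different days. Ratios carry no level, so the tissue could be judged only by which genes gave values: 13 of 22 phototransduction and eye genes (59.1%) and 25 of 39 oxidative phosphorylation genes (64.1%) did, against 35.1% of all genes, 6 of 30 testis genes (20%) and 5 of 20 gut genes (25.0%). Other genes of the head gave fewer, with 11 of 57 cuticle genes (19.3%), 1 of 6 GABA genes (16.7%) and 4 of 13 glutamate signalling genes (30.8%), so this share is no clear mark of tissue.

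**Figure D1:**
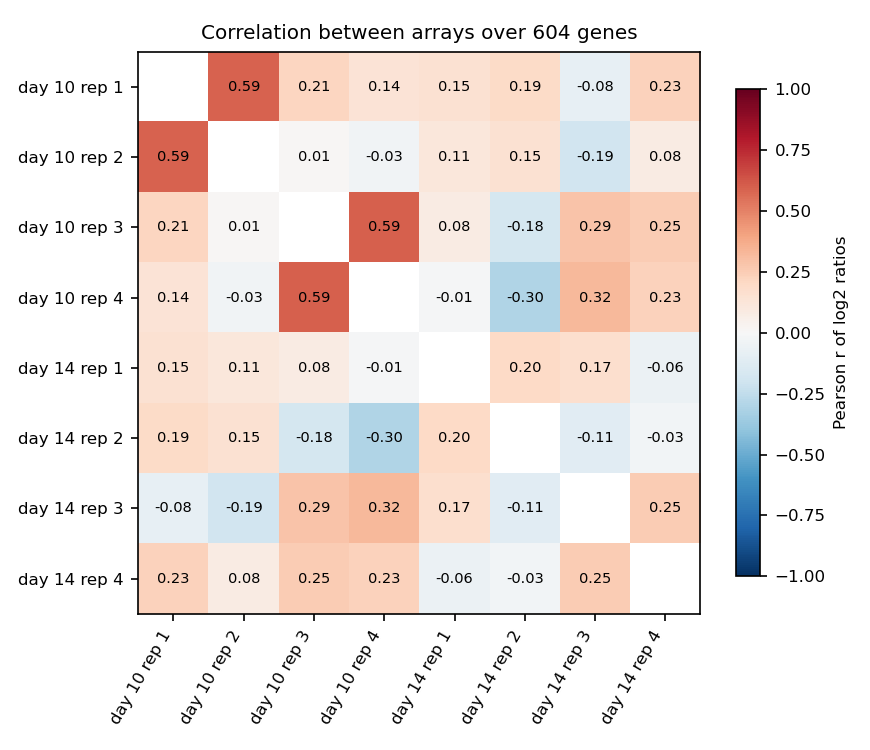
Pearson correlation of log2 ratios between each pair of the 8 arrays over the 604 genes measured on all of them; rows and columns are arrays, colour and printed value give r. The pairs of replicates 1 and 2 and of replicates 3 and 4 of day 10 stand at 0.59, and no pair that includes a day 14 array exceeds 0.32.

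Signs below follow the channel labels, which put the withdrawn heads in Cy5 on every array, so that a positive log2 ratio means more RNA in withdrawn heads. This direction is not settled. The text of the series states that 2 of the 4 arrays of each time had the dyes swapped, and in 3 of the day 10 samples, replicates 1 to 3, the protocol gives the dye of the withdrawn heads as Cy3, against the channel labels of the same samples. The base of the logarithm is taken as 2. As deposited, the medians of the arrays were -0.31 to -0.20 at day 10 and 0.56 to 1.59 at day 14, and each was set to 0 here, so a gene's value is relative to the middle gene of its array.

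No gene passed the test between the days. With limma and Benjamini-Hochberg adjustment over all 2385 genes, 0 genes (0%) had an adjusted p under 0.05, and the smallest adjusted p was 0.359. At an unadjusted p under 0.05 there were 174 genes (7.3%), of which 89 (3.73%) were higher and 85 (3.56%) lower at day 14. The arrays of the days did not overlap for 216 genes (9.06%), with all day 14 values above all day 10 values in 119 (4.99%) and below them in 97 (4.07%). The differences of all genes had a median of -0.01 with quartiles of -0.16 and 0.15, and the median width of the 95% confidence interval of a difference was 0.79 on the log2 scale. Without centring of the arrays, 2360 genes were called, every one of them higher at day 14, where the middle gene itself differed by 1.38.

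Leaving out day 10 replicate 1 gave calls, in a run that kept all 2385 genes and did not apply the filter of 3 arrays a day anew. Without that array, limma called 8 genes at an adjusted p under 0.05, all lower at day 14, and the unadjusted count became 69 higher and 145 lower. The 8 were wus, CG32488, CG5412, jigr1, Lztr1, Naa30A, nAChRbeta3 and Rabex-5, with differences from -1.27 for Naa30A to -1.65 for Lztr1 and adjusted p from 0.0229 to 0.0489. For 7 of the 8, day 10 replicate 2 had no value either, so the 2 day 10 values left were those of replicates 3 and 4, a pair of like arrays. These 7 would not have met the filter of 3 arrays in that run. In those 7, replicates 3 and 4 of day 10 stood at 0.93 to 1.74, whereas replicate 1 stood at -0.48 to 0.33. wus had no value on replicate 1, so its own difference did not change and only its error and adjustment did. No gene was called when any other single array of the 8 was left out.

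As labelled, day means of the same gene had little in common. Across the 2385 genes the day 10 and day 14 means correlated at r = 0.13 (Spearman's rho = 0.15), as a description over genes of the same arrays, and 1055 genes (44.2%) had means of opposite sign. The middle absolute mean was 0.12 at day 10 and 0.10 at day 14, and 1342 genes (56.3%) lay farther from 0 at day 10. Among the 174 genes with an unadjusted p under 0.05, 121 (69.5%) lay farther from 0 at day 10, and 144 had means of opposite sign. These genes were picked for their difference between the days, and such a pick favours means of opposite sign. The counts over them therefore only describe the genes picked. Of the 85 lower at day 14, 61 were above 0 and farther from it at day 10, and 24 were below 0 and farther from it at day 14. Of the 89 higher at day 14, 60 were below 0 and farther from it at day 10, and 29 were above 0 and farther from it at day 14. These shares moved with the direction in which arrays were read. The share farther from 0 at day 10 was 45% of 100 genes with day 10 replicates 1, 2 and 3 turned, beside 45.5% of all genes. It was 76.9% of 117, 35% of 20 and 52.8% of 36 with replicates 3 and 4, 2 and 4, or 2 and 3 of both days turned. The shares over all genes under these readings were 62.9%, 40.2% and 43.2%. Means of opposite sign made up 77.8% to 98% of the genes picked by p under these 4 readings, and 42.3% to 52.7% of all genes.

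**Figure D2:**
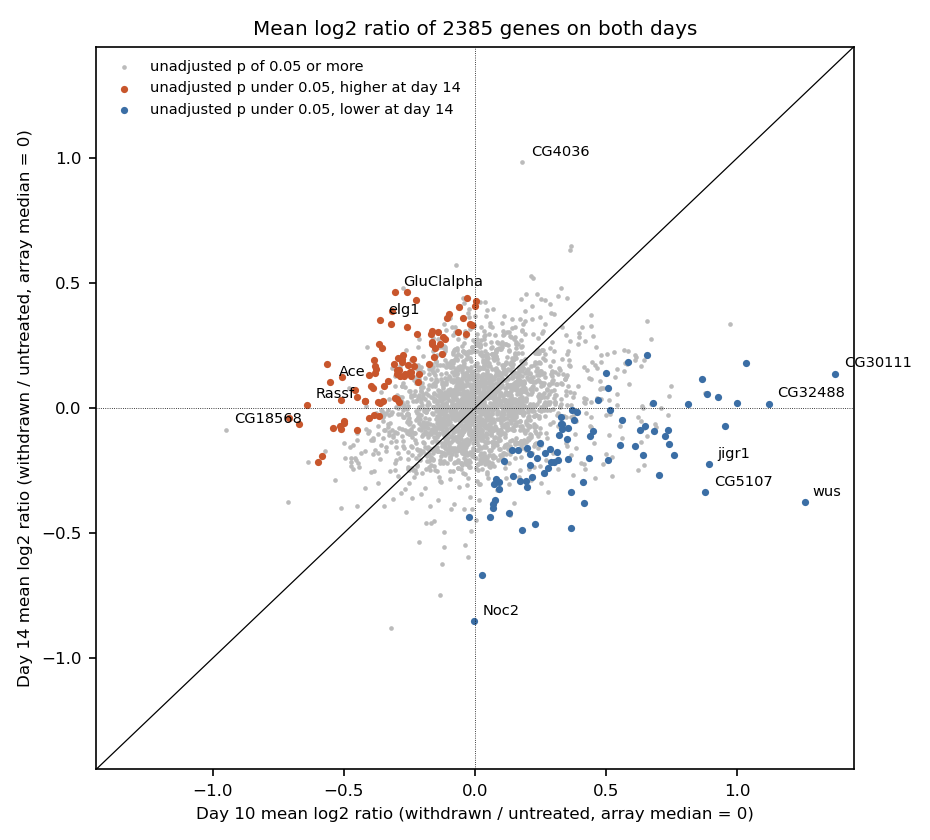
Mean log2 ratio of withdrawn over untreated heads at day 10 (x axis) and day 14 (y axis), one point per gene for 2385 genes, with genes of unadjusted p under 0.05 in colour (89 higher and 85 lower at day 14) and the line of equal means. The lower group spreads to the right of 0 on the day 10 axis, as far as CG30111 at 1.38, with day 14 means mostly within 0.5 of 0.

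As labelled, all 6 genes that differed by more than 1 on the log2 scale were lower at day 14. This direction depended on the reading. With day 10 replicates 1, 2 and 3 turned, 1 gene was lower by more than 1. With replicates 3 and 4, 2 and 4, or 2 and 3 of both days turned, 8, 1 and 1 genes were higher by more than 1, and none lower. Turning the remaining 2 replicate numbers of both days instead reverses these last signs. wus (wurst), a transmembrane J-domain protein needed for clathrin-mediated endocytosis, had the smallest p of all. Its log2 ratio was 1.78, 1.13 and 0.86 on day 10 replicates 2, 3 and 4, and -0.12, -0.57, 0.12 and -0.94 on the day 14 arrays. The means were 1.26 ± 0.47 (SD, n = 3) and -0.38 ± 0.47 (SD, n = 4), a difference of -1.63 (SE 0.28; adjusted p = 0.359 by limma). Every day 10 array was above every day 14 array, although the spots of wus lay up to 2.16 apart on one array.

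CG30111 was at 1.59, 1.68 and 0.86 on day 10 replicates 2 to 4 and at 0.13, -0.01 and 0.30 on day 14 replicates 1 to 3. Its difference was -1.24 (SE 0.23), with spots up to 4.37 apart on one array. CG5107 was at 0.74, 1.03 and 0.87 at day 10 (replicates 1, 3 and 4) and at -0.52, -0.68 and 0.19 at day 14 (replicates 1 to 3), a difference of -1.21 (SE 0.24). The groups did not overlap for either gene. CG32488 differed by -1.10 (SE 0.31), from 0.33, 1.33 and 1.71 on day 10 replicates 1, 3 and 4 to 0.01, -0.08 and 0.12 on day 14 replicates 1 to 3. jigr1 differed by -1.12 (SE 0.42), but its day 10 values of -0.16, 1.74 and 1.10 reached below its highest day 14 value of 0.11. The high day 10 mean of jigr1 came from replicates 3 and 4. No role was given to the genes known here only by a CG number.

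Several genes of known role followed among those lower at day 14. Nemp, an inner nuclear envelope protein, was at 0.05, 0.72 and 0.33 at day 10 and -0.38, -0.74 and -0.32 at day 14, a difference of -0.85 (SE 0.22). Noc2, a ribosome assembly factor, was close to 0 at day 10 (-0.02, -0.24, 0.16 and 0.09) and at -0.29, -0.93 and -1.33 at day 14, a difference of -0.85 (SE 0.23). Its ratio lay away from 0 on the later day. Obp59a, an odorant-binding protein of the antenna, was at 0.06, 0.48, 1.19 and 0.84 at day 10 and at -0.17, -0.29 and -0.11 at day 14, a difference of -0.83 (SE 0.24). cN-IIIB, a cytosolic 5′-nucleotidase, differed by -0.78 (SE 0.23), from 0.21, 0.72 and 1.13 to -0.10, 0.03 and -0.21. In all 4 genes the arrays of the days stood apart.

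The other genes of this group by the smallest p were CG1647, CG13330, CG2865 and CG6923. CG1647 was at 0.69 to 1.08 at day 10 and 0.02 to 0.19 at day 14, a difference of -0.75 (SE 0.17). CG13330 was at 0.15 to 0.59 and then -0.42 to -0.17, a difference of -0.71 (SE 0.18). CG2865 lay between 0.06 and 0.27 on all 4 day 10 arrays and between -0.75 and -0.13 on 3 day 14 arrays, differing by -0.67 (SE 0.18). CG6923 had a value on all 8 arrays, from 0.14 to 0.63 at day 10 and from -0.25 to 0.06 at day 14, and differed by -0.54 (SE 0.15). By limma with all 8 arrays, the adjusted p was 0.424 for CG30111 and CG5107 and 0.679 for nAChRbeta3. It was 0.604 to 0.635 for the other genes named so far as lower at day 14 apart from wus.

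As labelled, genes higher at day 14 differed by less than 1, and those with the smallest p were below 0 at day 10. elg1, which unloads the sliding clamp PCNA from replicated DNA, had the smallest p. It was at -0.47, -0.39, -0.11 and -0.48 at day 10 and 0.55, 0.22 and 0.29 at day 14, a difference of 0.72 (SE 0.16; adjusted p = 0.604 by limma). Rassf, a regulator of the Hippo growth pathway, was at -0.53, -0.51, -0.91 and -0.61 at day 10 and within 0.04 of 0 on the 3 day 14 arrays with a value, a difference of 0.65 (SE 0.15). Ank2, the long neuronal ankyrin that holds synaptic microtubules and membrane proteins in place, was at -0.41, -0.27, -0.34 and -0.40 and then at 0.43, 0.14 and 0.15, a difference of 0.60 (SE 0.15). The day 10 values of Ank2 lay closer together (SD 0.07) than its day 14 values (SD 0.17).

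Ubi-p63E, which encodes polyubiquitin, was at -0.48, -0.27, -0.41 and -0.13 at day 10 and at 0.15, 0.42 and 0.43 on day 14 replicates 1, 3 and 4, a difference of 0.66 (SE 0.16). Ace, the acetylcholinesterase that ends cholinergic transmission, was at -0.68, -0.40, -0.72 and -0.41 and then at 0.35, -0.12 and 0.09, a difference of 0.66 (SE 0.17). SKIP, which binds the potassium channel Shal, was at -0.55, -0.44, -0.43 and -0.56 at day 10 and at -0.0024, 0.01, -0.14 and -0.11 at day 14, a difference of 0.44 (SE 0.12). In all 3 genes the ratio was below 0 on every day 10 array. At day 14 Ubi-p63E was above 0 on all 3 arrays with a value, while Ace and SKIP had values on both sides of 0.

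Vha26, the E subunit of the vacuolar proton pump, was at -0.26, -0.37, -0.60 and -0.24 at day 10 and at 0.05, 0.18, 0.69 and 0.10 at day 14. Its difference of 0.62 (SE 0.17) was measured on all 8 arrays, and the days did not overlap. ClpP, a mitochondrial matrix protease, differed by 0.58 (SE 0.16) and if (inflated), an integrin alpha subunit, by 0.66 (SE 0.18). Adgf-C, an adenosine deaminase-related growth factor, differed by 0.72 (SE 0.20), with one day 14 array at 0.96 and the other two at 0.25 and 0.18. Pfdn6, a prefoldin subunit that hands new actin and tubulin to the chaperonin, differed by 0.74 (SE 0.21), and Sf3a1, a U2 snRNP protein of the spliceosome, by 0.58 (SE 0.17). The adjusted p of the 12 genes above ranged from 0.604 to 0.635 by limma.

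**Figure D3:**
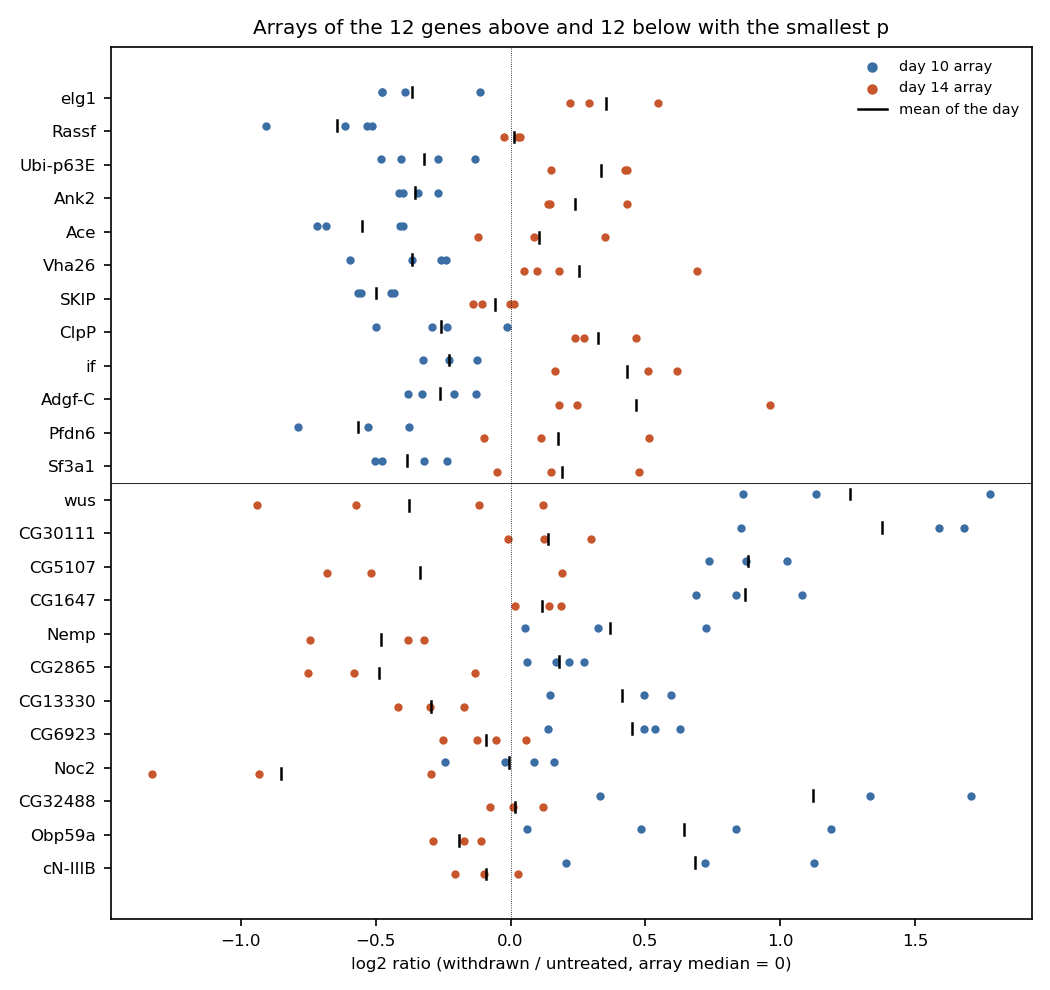
Log2 ratio on each array (x axis) of the 12 genes with the smallest p above 0 and the 12 below 0, with day 10 arrays in blue, day 14 arrays in orange and the mean of each day as a vertical bar. The genes were chosen for their small p, and in all 24 the arrays of the days stand apart; the upper 12 lie left of 0 at day 10 and the lower 12 lie mostly right of it.

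GluClalpha, the glutamate-gated chloride channel, had one of the 5 largest differences above 0 although its arrays overlapped. It was at 0.08, -0.08, -0.50 and -0.72 at day 10 and 0.32, 1.06, -0.03 and 0.51 at day 14, a difference of 0.77 (SE 0.24). CG18568 differed by 0.86 (SE 0.43) and Cyp313a1, a cytochrome P450, by 0.75 (SE 0.38), with day 10 SDs of 1.04 and 0.60. CG4036 differed by 0.80 (SE 0.54), which rested on day 14 replicate 2 at 2.75. Without that array the difference of CG4036 was -0.08.

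The sign of these differences depended on how the arrays were read. When day 10 replicates 1, 2 and 3 were turned, which follows the dye in their protocols, 14 of the 24 genes with the smallest p kept their sign. When 2 replicate numbers were turned on both days, 11, 11 or 15 of the 24 kept it, by which numbers were turned. CG5107, elg1, Ank2, Adgf-C and Sf3a1 kept their sign under all 4 of these readings. These 4 are only some of those that the text of the series allows, since it does not settle which 2 arrays were swapped. The 4 readings also differ in what they do to the like pairs of day 10, at r = 0.59 each. With replicates 3 and 4 turned, both pairs stay positively correlated. With day 10 replicates 1, 2 and 3 turned, the pair of replicates 3 and 4 becomes negatively correlated. With 2 and 4, or 2 and 3, turned, both pairs do. Which reading is right was not tested. Turning the remaining 2 replicate numbers of both days instead gives the same differences with the sign reversed. No gene can therefore keep its sign under every reading. wus stood at 0.11 to 0.88 under the 4 readings run, against -1.63 as labelled. The unadjusted count was 100 for the first reading and 117, 20 and 36 for the others, against 174 as labelled, and no gene was called.

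Of 48 tested genes in 7 lists (GABA, glutamate, acetylcholine and monoamine signalling, synaptic vesicles, ion channels and neuropeptides), joined after their values were seen, 32 were above 0 and 16 below, with a median difference of 0.14 against -0.01 for all genes. At an unadjusted p under 0.05, 7 were higher and 1 lower, against 3.73% and 3.56% of all genes. The arrays of the days stood apart in 4 higher and 1 lower, against 4.99% and 4.07% of all genes. The middle day mean of the 48 was -0.09 at day 10 and 0.06 at day 14. On single arrays their median was -0.04, -0.08, -0.14 and -0.10 at day 10 and -0.06, 0.11, 0.04 and -0.08 at day 14, so that the days overlapped. The median turned to -0.0032, -0.02 and -0.09 when replicate numbers were turned on both days, and to 0.05 when day 10 replicates 1, 2 and 3 were turned.

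Of the 6 genes of GABA signalling on the array, the target pathway of the drug, Gad1 alone was tested. Its log2 ratio was -0.05, -0.09, -0.54 and -0.17 at day 10 and 0.01, 0.24, 0.26 and 0.04 at day 14. The means were -0.21 ± 0.22 and 0.14 ± 0.13 (SD, n = 4 each), a difference of 0.35 (SE 0.15; adjusted p = 0.635 by limma). All 4 day 14 arrays were above all 4 day 10 arrays. Under the readings that turned replicates 3 and 4, or 2 and 3, of both days the difference of Gad1 was -0.15 and -0.21. It stayed above 0 with day 10 replicates 1, 2 and 3 turned, and with replicates 2 and 4 of both days turned.

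In glutamate signalling, GluClalpha and Gs2 were 2 of 4 tested genes with an unadjusted p under 0.05, both higher, against 3.73% of all genes. Gs2, a glutamine synthetase that glia use to clear glutamate, was at -0.44, 0.05, -0.23 and -0.03 at day 10 and -0.14, 0.39, 0.45 and 0.32 at day 14, a difference of 0.42 (SE 0.17) with overlap. Gdh and Gs1, which interconvert glutamate with its neighbours in metabolism, differed by -0.03 and -0.02. In acetylcholine signalling 3 genes were tested. Beside Ace, the choline transporter ChT differed by 0.32 and the receptor subunit nAChRbeta3 by -0.76 (SE 0.44). The day 10 values of nAChRbeta3 were -0.48 on replicate 1 but 1.31 and 1.39 on replicates 3 and 4.

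Of 7 monoamine genes 5 were above 0, with a median of 0.22. DAT, the dopamine reuptake transporter, was at -0.38, -0.29, -0.20 and -0.72 at day 10 and 0.40, -0.16 and 0.03 at day 14, a difference of 0.49 (SE 0.19), with the days apart. The serotonin receptor 5-HT7 differed by -0.26 (SE 0.19). Of 10 synaptic vesicle genes 7 were above 0, with a median of 0.13. Rab3, the small GTPase of synaptic vesicles, was at -0.25, -0.98, -0.57 and -0.90 and then at -0.10, 0.37 and -0.46, a difference of 0.61 (SE 0.24) with overlap. Under the 4 turned readings that were run, the difference of Rab3 lay between -0.41 and -0.02. As labelled, the median of the vesicle genes was -0.21 to -0.17 on the day 10 arrays and -0.14 to 0.09 on the day 14 arrays, taken on each array over the genes measured there. The chaperone Csp, which keeps release machinery folded, differed by -0.13 (SE 0.22).

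Ion channels and pumps were spread around 0. Of 12 tested, 8 were above 0, with a median of 0.03. SKIP was the single gene with an unadjusted p under 0.05, against 3.73% of all genes higher. The chloride transporter ClC-c differed by -0.22 (SE 0.16). Of 11 neuropeptide genes 7 were above 0, with a median of 0.09. 7B2, the chaperone of the prohormone convertase, was at 0.23, -0.05, 0.23 and 0.28 at day 10 and -0.14, -0.53 and -0.20 at day 14, a difference of -0.46 (SE 0.16), with the days apart. The peptide gene AstC, allatostatin C, differed the other way by 0.48 (SE 0.23). Second messenger and activity-regulated genes were split evenly, 6 above and 6 below 0, from Galphao at -0.31 to Galphas at 0.33, both G protein alpha subunits.

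Genes of the ubiquitin pathway were above 0 in 9 of 10 cases, with a median of 0.24. Ubi-p63E and slmb had an unadjusted p under 0.05 and were higher, as were 3.73% of all genes. slmb, an F-box protein that targets clock and Hedgehog proteins for breakdown, was at -0.49, -0.16, -0.55 and -0.41 at day 10 and 0.13, 0.02, -0.11 and -0.19 at day 14, a difference of 0.37 (SE 0.14). Usp14, a deubiquitinase of the proteasome, was the one below 0, at -0.17 (SE 0.16). The median of the list was 0.03 over the 3 genes measured on all 8 arrays and -0.16 when replicates 3 and 4 of both days were turned. Of 12 proteasome subunits 5 were above 0, with a median of -0.04, between Prosalpha2 at -0.32 and Prosbeta7 at 0.34. Prosalpha3, of the outer ring of the core, differed by 0.27 (SE 0.14) with the days apart. Of 17 chaperones 9 were above and 8 below 0, with a median of 0.07, and wus and Pfdn6 at either end.

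Clock genes were above 0 in 6 of 7 cases, with a median of 0.16. The single one with an unadjusted p under 0.05, against 3.73% of all genes higher, was slmb, which is also in the ubiquitin list. lark, an RNA-binding protein of the clock's output, was the one below 0, at -0.15 (SE 0.18). per, the period gene itself, was at -0.11, 0.02, -0.07 and -0.07 at day 10 and at 0.09, -0.21 and 0.43 at day 14. The day 14 arrays of per did not match each other. The clock median lay between -0.03 and 0.01 under the 4 turned readings.

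Genes of energy metabolism had a few members apart and a middle near 0. Of 25 oxidative phosphorylation genes 11 were above and 14 below 0, with a median of -0.02. Yet 4 of the 25 had an unadjusted p under 0.05 and a higher value at day 14, against 3.73% of all genes, and none had one with a lower value. They were levy, a cytochrome c oxidase subunit, and the complex I subunits ND-13B, ND-15 and ND-B17.2, the last 3 of them picked on their values. levy was at 0.0050, -0.18 and -0.14 at day 10 and 0.17, 0.41 and 0.49 at day 14, a difference of 0.47 (SE 0.17). ND-15 was at -0.29, -0.09, -0.18 and 0.06 and then at 0.15, 0.35, 0.13 and 0.24, a difference of 0.34 (SE 0.14). ATPsynB, of the ATP synthase stalk, differed by -0.26 (SE 0.16) at the other end of the list.

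In sugar metabolism 8 of 14 genes were above 0, with a median of 0.06, and 1 higher and 3 lower genes had an unadjusted p under 0.05, against 3.73% and 3.56% of all genes. Tps1, which makes trehalose, the blood sugar of insects, was at 0.19, 0.12, 0.89 and 1.31 at day 10 and -0.18, -0.14 and 0.05 at day 14, a difference of -0.72 (SE 0.27). Treh, the trehalase that splits it, was at -0.29, -0.20, -0.62 and -0.56 and then at -0.29, 0.22, 0.35 and -0.16, a difference of 0.45 (SE 0.18). The days did not overlap for Tps1 and overlapped for Treh. With replicates 3 and 4 of both days turned the signs were the other way, at 0.35 for Tps1 and -0.24 for Treh. The other lower genes, named after their values were seen, were Glys, glycogen synthase, at -0.69 (SE 0.28), and Mdh1, malate dehydrogenase, at -0.52 (SE 0.23). Of 8 vacuolar proton pump genes 5 were above 0, with a median of 0.12, from Vha26 at 0.62 to Vha36-2 at -0.25, and VhaAC45 at -0.20 had the smallest p of those below 0.

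Fat body and lipid genes had the lowest median of the lists with 5 or more genes tested. Of 17 tested, 13 were below and 4 above 0, with a median of -0.22. Fst (Frost), a cold-induced gene, was at 0.54, 0.69, 0.62 and 0.50 at day 10 and 0.18, -0.12 and 0.48 at day 14, a difference of -0.40 (SE 0.17), with the days apart. Desat1, the fatty acid desaturase, was named after its value was seen as the other of 2 genes with an unadjusted p under 0.05, against 3.56% of all genes lower. It differed by -0.64 (SE 0.28), with overlap. The yolk protein genes Yp3 and Yp1 differed by -0.64 (SE 0.32) and -0.87 (SE 0.52), and day 10 replicate 4 held the highest value of both, 1.12 and 1.95. Lip4, a lipase gene, was at the upper end with 0.20 (SE 0.22).

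The fat body median followed single arrays as much as days. It was -0.11, -0.17, 0.13 and 0.47 on day 10 replicates 1 to 4 and -0.05, -0.30, 0.10 and 0.08 on day 14 replicates 1 to 4. The days overlapped in this measure, with day 10 replicate 4 highest and day 14 replicate 2 lowest. The median of the differences lay between -0.32 and -0.14 when single arrays were left out, the latter without day 10 replicate 3. It was 0.09 and 0.14 when replicates 3 and 4, or 2 and 4, of both days were turned. It stayed below 0, at -0.26 with day 10 replicates 1, 2 and 3 turned and at -0.13 with replicates 2 and 3 of both days turned. Only 1 gene of the list was measured on all 8 arrays. What part the share of fat body in the heads had in other differences was not tested.

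**Figure D4:**
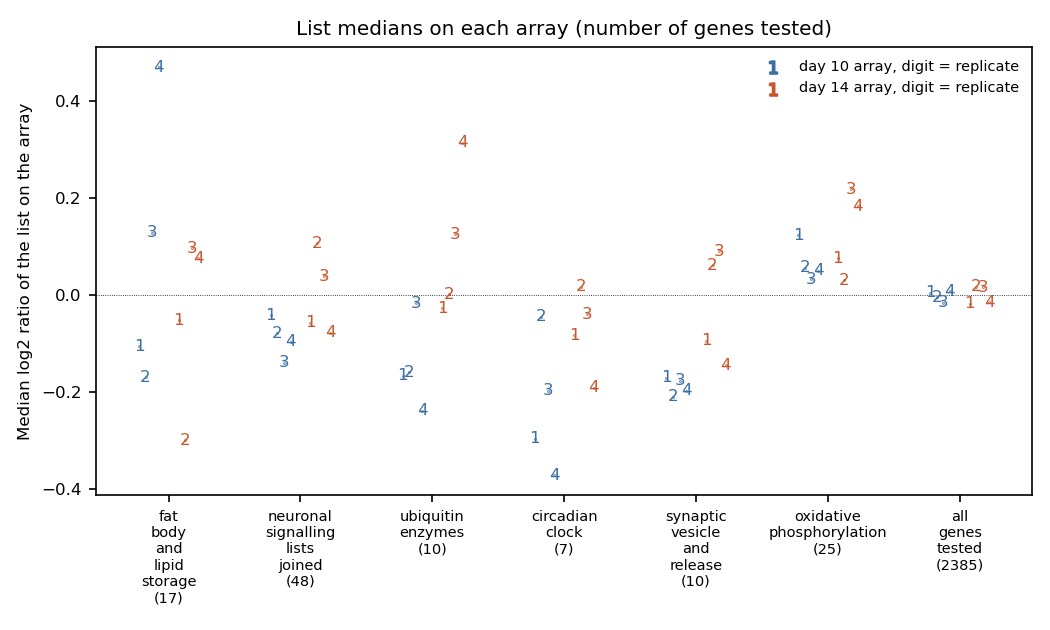
Median log2 ratio of 6 gene lists and of all genes tested on each array (y axis), with digits for replicates, day 10 in blue and day 14 in orange. The fat body genes range from -0.30 to 0.47 with the days mixed. With signs as labelled, the synaptic vesicle genes lie at or below -0.17 on day 10 arrays and at or above -0.1445 on day 14 arrays, a narrow gap.

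The medians of the markers of other tissues lay nearer to 0. Of 7 glial genes 2 were above and 5 below 0, with a median of -0.05, and their leading members pointed opposite ways: Gs2 at 0.42 and loco, a regulator of G protein signalling in glia, at -0.38 (SE 0.16). Of 13 eye genes 6 were above 0, with a median of -0.02, from rdgA, the diacylglycerol kinase of photoreceptors, at 0.38 (SE 0.21) to the light-activated channel trpl at -0.22 (SE 0.16). Of 6 muscle genes 5 were above 0, with a median of 0.12. Act88F, flight muscle actin, was at 0.08, 0.10, -0.03 and 0.11 at day 10 and 0.34, 0.28 and 0.36 at day 14, a difference of 0.26 (SE 0.14). Zasp66, a Z-disc protein, lay below 0 at -0.13 (SE 0.14).

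Of 5 gut genes 4 were below 0, with a median of -0.03. Jon65Aiii, a digestive serine protease, differed by -0.48 (SE 0.22) and Jon25Biii, another of that family, by 0.18 (SE 0.16). Of 6 testis genes 4 were below 0, with a median of -0.08, Mst77F among them at -0.20 (SE 0.17), and achi was highest at 0.21 (SE 0.19). Of 7 female germ line and yolk genes 6 were below 0, with a median of -0.11, the yolk proteins lowest and exu, an RNA localisation factor, highest at 0.26 (SE 0.25). Of 4 blood cell and basement membrane genes 2 were above 0, with a median of -0.03. No gene of these lists had an unadjusted p under 0.05.

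Genes of protein synthesis showed single members apart and medians near 0. Of 26 translation factors and tRNA synthetases 16 were above 0, with a median of 0.06. eIF4B, which helps the initiation helicase, was at -0.58, -0.41, -0.44 and -0.57 at day 10 and 0.03, -0.33 and 0.15 at day 14, a difference of 0.45 (SE 0.16). eIF4G1, the initiation scaffold, named after its value was seen, differed by 0.35 (SE 0.13), also with the days apart. eIF3d2 differed by -0.82 (SE 0.31), with day 10 values of 0.0005, 1.37 and 0.84. Of 11 cytosolic ribosomal proteins 7 were below 0, with a median of -0.15 and none with an unadjusted p under 0.05. RpL29 was at 0.32 (SE 0.18) and RpL17 at -0.19 (SE 0.16).

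Mitochondrial ribosomal proteins were split 8 to 8, with a median of -0.03. mRpS33 was at 0.46 (SE 0.19) and mRpS29 at -0.52 (SE 0.21), the first below 0 on every day 10 array. Of 13 ribosome biogenesis genes 6 were above and 7 below 0, with a median of -0.0003 and 2 lower ones at an unadjusted p under 0.05, against 3.56% of all genes. These were Noc2 and, named after its value was seen, the exosome nuclease Dis3 at -0.36 (SE 0.16). Csl4, an exosome subunit, was at 0.19 (SE 0.19). Of 21 splicing genes 11 were above 0, with a median of 0.02, from Sf3a1 at 0.58 to Sf3b3, of the same U2 snRNP, at -0.46 (SE 0.29).

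Detoxification and defence genes showed no common direction. Of 23 cytochrome P450 genes 15 were above 0, with a median of 0.08 and none at an unadjusted p under 0.05. Cyp4d21 was at -1.07, -0.75, 0.06 and 0.11 at day 10 and -0.36, 0.33, 0.84 and 0.17 at day 14, a difference of 0.66 (SE 0.30). In Cyp4d21 replicates 1 and 2 of day 10 stood apart from replicates 3 and 4. Cyp6a21 differed by -0.40 (SE 0.29), and its spots lay up to 5.34 apart on one array. Of 11 glutathione and UDP-sugar transferases 7 were above 0, with a median of 0.04. GstE14, a glutathione transferase, differed by -0.33 (SE 0.15) with the days apart, and Ugt301D1 by 0.34 (SE 0.18).

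Of 6 antioxidant genes 5 were below 0, with a median of -0.13, among them Gclm, the modifier subunit of glutathione synthesis, at -0.26 (SE 0.16). The peroxiredoxin Prx6c lay above 0 at 0.22 (SE 0.15). Of 10 immune genes 6 were above 0, with a median of 0.01. The serpin gene Spn38F was highest at 0.64 (SE 0.30), and grass, a protease upstream of Toll, was at -0.25 (SE 0.16). Spn38F owed its place to day 14 replicate 3 at 1.45, beside 0.31 and -0.04 on the other arrays of the day.

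Of 17 chemosensory genes 8 were above 0, with a median of -0.01. Obp59a was the single one with an unadjusted p under 0.05, against 3.56% of all genes lower. Obp56h, another odorant-binding protein, differed by 0.30 (SE 0.15) with the days apart. Of 11 cuticle genes 5 were above 0, with a median of -0.06. Cpr64Aa, a cuticle protein, was at -0.05, -0.28, -0.03 and -0.21 at day 10 and 0.56, 0.12 and 0.23 at day 14, a difference of 0.44 (SE 0.16), whereas TwdlL differed by -0.44 (SE 0.35). Of 27 membrane trafficking genes 13 were above 0, with a median of -0.02, from Rab3 at 0.61 to Snx1 at -0.26, with Snx17, a sorting nexin, at -0.21 (SE 0.15). Of 8 cytoskeleton genes 5 were above 0, with a median of 0.08, between Klc, kinesin light chain, at 0.21 (SE 0.15) and Map205, a microtubule-binding protein, at -0.11 (SE 0.16).

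**Figure D5:**
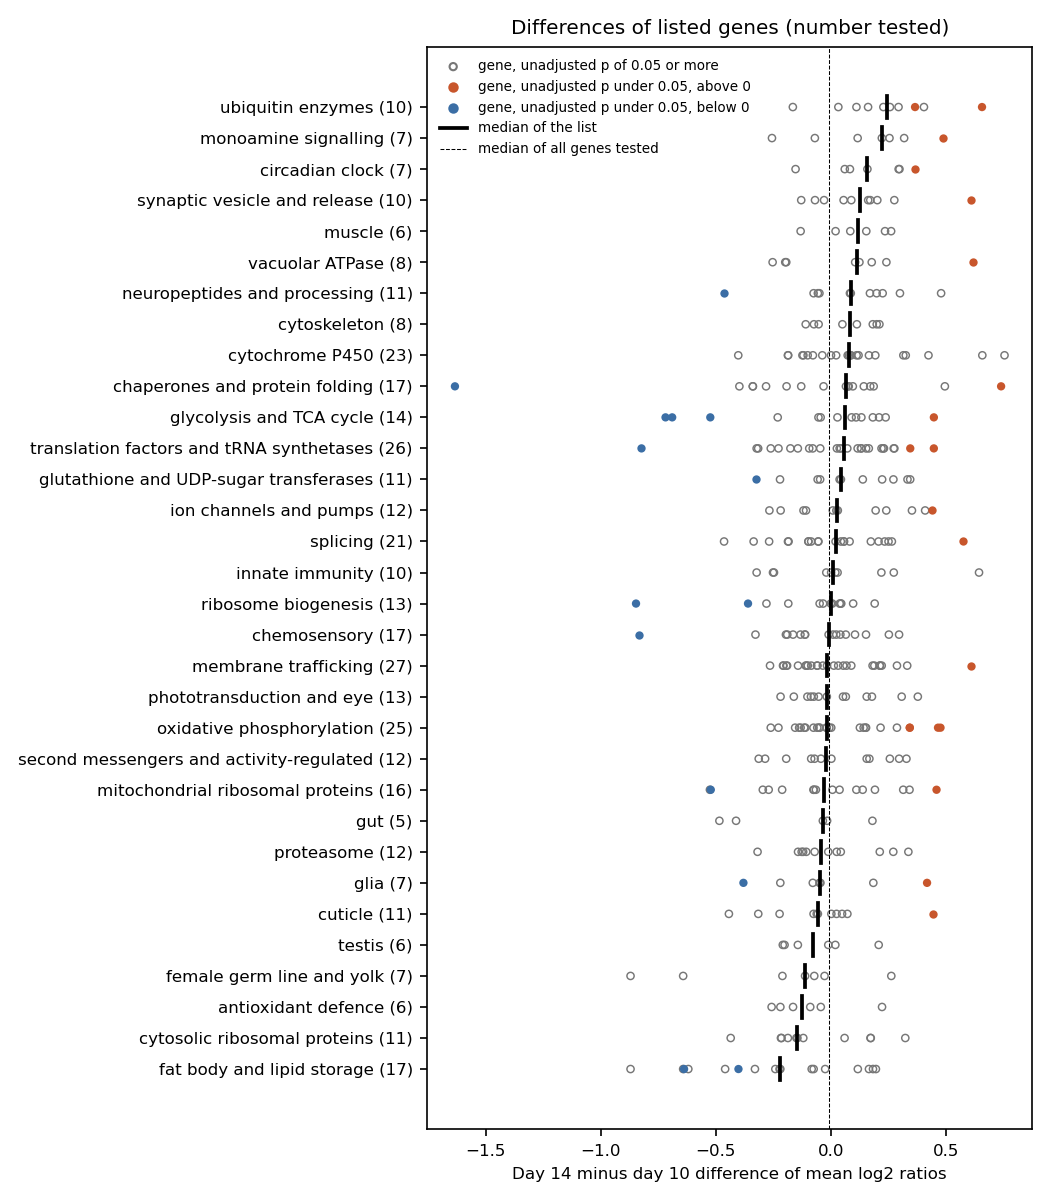
Day 14 minus day 10 differences of mean log2 ratios (x axis) for every tested gene of the lists with 5 or more genes tested, with the number tested in brackets, list medians as bars and the median of all genes dashed. Filled points have an unadjusted p under 0.05; medians run from -0.22 for fat body and lipid genes to 0.24 for ubiquitin genes, and most lists straddle 0.

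The breadth of the ratios on an array was compared last. It holds measurement noise as well as any difference between withdrawn and untreated heads, and these were not separated. Over the 604 genes measured on all 8 arrays, the interquartile range of log2 ratios was 0.30, 0.30, 0.34 and 0.44 on the day 10 arrays and 0.26, 0.36, 0.27 and 0.30 on the day 14 arrays. The means were 0.343 ± 0.0655 and 0.297 ± 0.0441 (SD, n = 4 each), a difference of -0.05 at day 14. The days overlapped, and the two-sided exact permutation test over 70 regroupings gave p = 0.314, where the smallest p it allows is 0.0286. Without day 10 replicate 4, the broadest array, the difference was -0.0150. Paired spots of a gene differed on the same array with an SD of 0.28, 0.30, 0.39 and 0.42 at day 10 and 0.37, 0.45, 0.30 and 0.25 at day 14. The SD of the averaged ratios over the 604 genes was 0.21 to 0.36 on the arrays. These SDs cannot be compared directly with those of paired spots, which are of differences between single spots and cover another set of genes.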

How the data were processed

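The deposited values are log ratios of the channels of each array, read as log2, since the base is not stated. Per the text of the series, the authors quantified images in GenePix Pro 6.0, normalized ratios in Acuity 4.0 and dropped saturated, flagged, uneven and dim spots. Their SAM 2.21 analysis was not repeated. Without intensities, signal over background could not be checked, and the number of arrays limits the precision. Probes were named from the GEO platform annotation: 15116 of 27648 spots had 1 gene, 102 several and 12430 none, and the last 2 kinds were left out. Symbols of 14894 spots were updated through RefSeq. Here each array's median was set to 0, spots were averaged per gene, and limma 3.58.1 in R 4.3.3 was fitted to both days. Genes with a value on at least 3 arrays of each day were adjusted together by Benjamini-Hochberg at 0.05. The fit was tested on simulated data with known changes.

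Genes were named by rule: the 12 smallest p in each direction, the smallest p in each direction of every list with at least 5 tested genes, every tested GABA gene, and the 5 largest and 5 smallest differences. The 36 lists and the comparison were chosen with earlier results of these data known. Replicate numbers were not used to pair the arrays in the main fit. Same-numbered arrays deviated together for 3 of the 4 numbers and not for replicate 1, and a fit with the replicate number as a block is given below. Alternatives changed the centring, scaling, spot averaging, filter, variance model, signs and arrays left out.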

Additional observations from a re-analysis of the deposited data

Results flagged for a closer look

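Among the named genes with 4 values on a day, 87 groups of 4 arrays were examined for a single array far from the others, and 3 had one, where chance alone gives about 1 in 20. 7B2 stood at -0.046 on day 10 replicate 2, with the other day 10 arrays at 0.227 to 0.2795. Klc stood at 0.0995 on day 10 replicate 1, with the others at -0.3195 to -0.3165. Map205 stood at 0.182 on day 14 replicate 2, with the others at -0.2715 to -0.22.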

How the results depend on the processing

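The count of called genes stayed at 0 under every alternative run but 2: values as deposited, without centring, gave 2360, and leaving out single arrays gave 0 to 8, the 8 without day 10 replicate 1. The unadjusted count of 174 went to 351 of 4247 genes with a value on at least 2 arrays of each day, to 55 of 604 with a value on all 4, to 100 with day 10 replicates 1, 2 and 3 turned, and to 20, 36 and 117 with replicates 2 and 4, 2 and 3, or 3 and 4 of both days turned. Leaving out single arrays gave 133 to 214, and the cause of these changes was not tested. With the replicate number as a replicate block, 0 genes were called and 238 had an unadjusted p under 0.05. Deviations of same-numbered arrays correlated at 0.02, 0.34, 0.25 and 0.16, and replicates 2 and 3, but not 1 and 4, matched best with their own number. The difference in breadth ranged from -0.0682 to -0.0150 with exact p of 0.171 to 0.571. With values as deposited, without centring, 41 of the 85 named genes had the opposite sign. Apart from that setting and the turned readings, Csp changed sign with array weights and without day 10 replicate 4. TwdlL did so with the replicate block and CG4036 without day 14 replicate 2. Under the 4 turned readings that were run, 36 to 55 of the 85 kept their sign. Every gene had at least 2 spots, so leaving out genes with 1 spot removed none. With 4 arrays a day, the middle interval of a difference spans 0.79.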
